A study of Mus musculus with 8 samples.

Results

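The ADAMTS metalloproteases are secreted zinc proteases that carry thrombospondin type 1 repeats and cut proteins of the extracellular matrix. Of 8 listed genes of this family, 7 had a probe set with a single gene symbol and were measured, out of 22180 genes on the arrays: Adamts1, Adamts4, Adamts5, Adamts9, Adamts10, Adamts12 and Adamts15. Adamts2, the procollagen N-proteinase, had no such probe set in the platform annotation used here and has no value. The rule took, per symbol, the probe set with the highest mean over all arrays, but each of the 7 genes had 1 probe set, so no choice was made. The list itself was chosen with measured values of these arrays known, among them the difference of Adamts1 between Tln1 vehicle and control arrays. The differences of the members are therefore a description with standard errors and support no test.

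RNA came from the glomeruli, the filtering units of the kidney, of mice aged 13 weeks, and was read on 8 Affymetrix arrays, 1 for each sample. In all, 3 groups were compared, all given doxycycline for 3 weeks from an age of 8 weeks. The group called Tln1 VPA here holds 3 arrays of the line Tln1 Pod-rtTA TetO-Cre given valproic acid, an inhibitor of histone deacetylases, for 2 weeks after doxycycline. Tln1 vehicle holds 3 arrays of the same line given vehicle for 2 weeks. The control group holds 2 arrays whose genotype the labels give only as control, and the labels do not say whether these mice received vehicle. By its name, the line expresses a doxycycline-driven Cre recombinase in podocytes, the epithelial cells of the filtration barrier, which acts on Tln1, the gene of talin 1. The labels do not say that arrays stand for separate animals, so a standard error here covers the spread among the samples and could be technical.

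The family falls into groups by substrate. Adamts1, Adamts4, Adamts5, Adamts9 and Adamts15 cut large chondroitin sulfate proteoglycans such as aggrecan and versican, Adamts10 binds fibrillin, Adamts12 cuts cartilage oligomeric matrix protein, and Adamts2, Adamts3 and Adamts14 trim the ends of fibrillar procollagens. Many of the proteases are made as precursors that furin-like convertases cut, and tissue inhibitors of metalloproteinases, chiefly Timp3, restrain several of them.

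The arrays fell into 2 sets by correlation across genes, and the sets did not follow the groups. The first set holds 5 arrays (Tln1 VPA 1 and 2, Tln1 vehicle 1 and 2, control 1) and the second holds 3 (Tln1 VPA 3, Tln1 vehicle 3, control 2). Any 2 arrays of the first set had exactly equal values for 1989 to 2600 of 41345 probe sets, and any 2 of the second set for 3759 to 4340, whereas 2 arrays from different sets had 0 to 2. Which arrays the authors normalised together is not given in the sources used here. The mean of 9 podocyte markers was 8.64 to 9.29 in the second set and 7.42 to 8.09 in the first. That of 9 proximal tubule markers was 10.72 to 11.17 and 11.72 to 12.12, so the isolates held tubular RNA throughout. The tubule marker Kap, at 7.70 to 8.90 in the second set and 9.63 to 12.91 in the first, widened this gap. In bulk RNA, fewer cells of a type and less RNA per cell cannot be told apart. The mean of 3 Y-linked genes was 4.85 to 7.00 in the first-set Tln1 arrays, 3.57 in control 1 and 2.56 to 2.72 in the second set. Within the first set, differences of Tln1 arrays from control 1 thus cannot be told apart from a difference in this signal. Tln1 itself stood at 8.59 to 8.88 in Tln1 VPA, 8.60 to 8.95 in Tln1 vehicle and 8.64 to 8.97 in control arrays, but these values check nothing, since no source used here places the probe set inside or outside the deleted stretch. Values are log2 expression throughout, and the main differences of the members are also given within the first and the second set. A second-set difference rests on 1 array from each group.

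Adamts1, a protease of versican and aggrecan with antiangiogenic thrombospondin repeats, separated all 3 groups. It stood at 7.37, 7.37 and 7.43 in the Tln1 VPA arrays, at 7.16, 7.00 and 7.27 in the Tln1 vehicle arrays, and at 6.45 and 6.57 in the control arrays. Every Tln1 VPA array lay above every Tln1 vehicle array, and every Tln1 vehicle array lay above both control arrays. The sequence before its transcription start is shown because Adamts1 was the member whose arrays did not overlap in any comparison. It is the 250 bases at chr16:85803114-85803363 on the minus strand (GRCm38.p6, RefSeq), written 5′ to 3′ and ending at the base before the start, with GC boxes (GGGCGG) and the TATA box (TATAAA) in capitals.
Adamts1: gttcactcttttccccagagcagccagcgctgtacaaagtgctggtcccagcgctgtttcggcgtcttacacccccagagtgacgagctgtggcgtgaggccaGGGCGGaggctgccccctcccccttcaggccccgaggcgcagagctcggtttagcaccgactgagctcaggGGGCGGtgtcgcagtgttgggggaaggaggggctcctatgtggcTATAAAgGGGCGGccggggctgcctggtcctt

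The TATAAA letters lay 32 to 27 bases before the start, and the 3 GGGCGG matches began 147, 76 and 25 bases before it, with no overlap between the motifs. Searched on both strands, TATAAA occurred in 12.4% and GGGCGG in 32.7% of the 32851 promoter windows of this length in the table. GCGNGGGCG, the EGR motif, TGANTCA, the AP-1 motif, and TGACGTCA, the cyclic AMP response element, were not in this window, while 4.7%, 6.75% and 1.55% of all windows held them. Of the 7 measured members, 3 had an entry in the promoter table. In the window of Adamts9, GGGCGG occurred once, on the minus strand, 7 to 2 bases before the start, and the window of Adamts12 held neither GGGCGG nor TATAAA. These matches describe letters in a window and not binding.

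The mean of Adamts1 was 7.14 ± 0.14 in Tln1 vehicle arrays and 6.51 ± 0.09 in control arrays (SD, n = 3 and 2), a difference of 0.64 (SE 0.13), or 1.55-fold. Within the sets it was 0.63 (first) and 0.70 (second). In Tln1 VPA arrays the mean was 7.39 ± 0.03 (SD, n = 3), which lay 0.25 (SE 0.11) above Tln1 vehicle and 0.88 (SE 0.13) above control. The Tln1 VPA minus Tln1 vehicle difference was 0.29 within the first set and 0.16 within the second. Against control, Tln1 VPA was higher by 0.93 (first set) and 0.86 (second set). In the second set, with 1 array per group, Adamts1 was at 7.43 in Tln1 VPA, 7.27 in Tln1 vehicle and 6.57 in control. The order with no overlap, Tln1 VPA above Tln1 vehicle above control, was found for 24 of 22180 genes (0.108%).

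Adamts5, an aggrecanase and the gene next to Adamts1 on chromosome 16, was high in the vehicle group and closer to control with valproic acid. It stood at 6.13, 6.56 and 6.28 in the Tln1 VPA arrays, at 7.07, 6.54 and 6.89 in the Tln1 vehicle arrays, and at 6.09 and 6.21 in the control arrays. All Tln1 vehicle arrays lay above both control arrays, while Tln1 VPA 2 slightly exceeded Tln1 vehicle 2. The difference between Tln1 vehicle (6.83 ± 0.27) and control (6.15 ± 0.09) was 0.69 (SE 0.19), and 0.72 and 0.68 within the sets. The difference between Tln1 VPA (6.32 ± 0.22) and Tln1 vehicle was -0.51 (SE 0.17), with -0.46 and -0.62 in the sets, and Tln1 VPA lay 0.18 (SE 0.19) above control, with 0.26 and 0.07. Both of the first 2 differences use the same Tln1 vehicle arrays. The neighbours Adamts1 and Adamts5 thus had differences of like size in Tln1 vehicle against control, and of opposite sign in Tln1 VPA against Tln1 vehicle. The difference between the 2 genes was not tested.

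**Figure D1:**
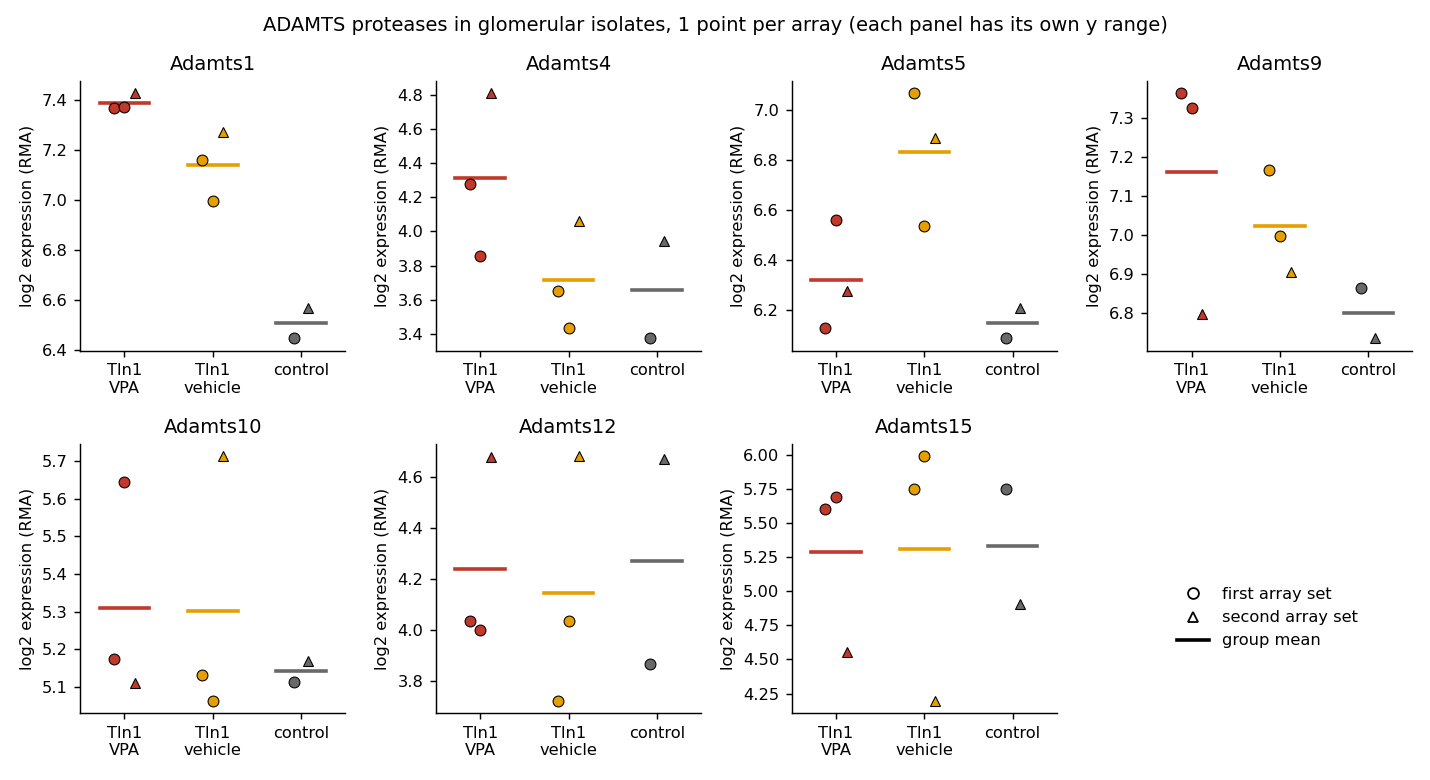
Log2 expression of the 7 measured members on each of the 8 arrays (y axis, each panel with its own range), by group (x axis: Tln1 VPA, Tln1 vehicle, control); circles are arrays of the first set, triangles arrays of the second set, and bars are group means. Adamts1 shows 3 separate bands, Adamts5 is highest in Tln1 vehicle, and Adamts12 and Adamts15 part by array set.

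Markers of mesangial and smooth muscle cells, the contractile cells of the glomerular tuft and its vessels, had the same order of group means as Adamts5. The mean of 9 measured markers of 10 was 6.78 to 6.89 in Tln1 VPA, 6.91 to 7.24 in Tln1 vehicle and 6.50 to 6.77 in control arrays, and all 9 had means above the median gene mean. Of the 9, 8 were higher and 1 lower in Tln1 vehicle than in control over all arrays. In Tln1 VPA against Tln1 vehicle 1 was higher and 8 lower, with none called. Within the first set Acta2, Tagln, Myh11 and Cnn1 were lower in Tln1 vehicle than in control (-0.30, -0.20, -0.32 and -0.37). In the second set, with 1 array per group, they were higher (1.48, 1.26, 0.59 and 0.74). Itga8, Pdgfrb, Des and Gata3 were higher in both sets, and Cspg4 was lower in both. Itga8, an integrin chain of mesangial cells, was 1.17 (SE 0.26) higher in Tln1 vehicle than in control and differed by -0.84 (SE 0.23) in Tln1 VPA against Tln1 vehicle. Pdgfrb, the platelet-derived growth factor receptor of mesangial cells and pericytes, gave 0.74 (SE 0.19) and -0.36 (SE 0.17), the second with -0.54 and -0.01 within the sets. The markers did not all run this way. Des, the intermediate filament desmin, was at 1.06 (SE 0.26) and -0.04 (SE 0.23), and Tagln, transgelin of smooth muscle, at 0.39 (SE 0.33) and 0.26 (SE 0.30). Endothelial markers had like counts over all arrays in Tln1 vehicle against control and in Tln1 VPA against Tln1 vehicle, but not in Tln1 VPA against control. Of 10, 8 were higher and 2 lower in Tln1 vehicle than in control (median 0.34). In Tln1 VPA against Tln1 vehicle 1 was higher and 9 lower (median -0.36), with none called. Their mean was 8.78 to 8.98 in Tln1 VPA, 8.71 to 9.69 in Tln1 vehicle and 8.61 to 9.36 in control arrays, so these ranges overlapped. The order of Tln1 vehicle and control turned between the sets. In the first set the mean was 9.16 and 8.71 in Tln1 vehicle and 9.36 in control. In the second set, with 1 array per group, it was 9.69 in Tln1 vehicle and 8.61 in control. The part of mesangial, smooth muscle and endothelial cells in the values of Adamts5 was not tested. The mean of 9 podocyte markers was 7.50 to 8.64 in Tln1 VPA, 7.82 to 9.02 in Tln1 vehicle and 7.42 to 9.29 in control arrays, so these ranges overlapped. Of these 9, 3 were higher and 6 lower in Tln1 vehicle than in control (median -0.06). In Tln1 VPA against Tln1 vehicle 1 was higher and 8 lower (median -0.32), with none called. Their part in the values of Adamts5 was not tested either.

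Adamts4, the other classical aggrecanase, had low values, with a mean over all arrays below the median gene mean of 4.92. It stood at 4.28, 3.85 and 4.81 in the Tln1 VPA arrays, at 3.65, 3.43 and 4.06 in the Tln1 vehicle arrays, and at 3.37 and 3.94 in the control arrays. The groups overlapped over all arrays, but within each set the Tln1 VPA arrays were the highest. Tln1 VPA minus Tln1 vehicle was 0.60 (SE 0.28), or 0.53 and 0.75 within the sets, and 0.35 without Tln1 VPA 3. Tln1 VPA minus control was 0.66 (SE 0.32), with 0.70 and 0.87 in the sets, 0.37 without control 1 and 0.41 without Tln1 VPA 3. Tln1 vehicle minus control was 0.06 (SE 0.32), and its sign turned without control 1 (-0.23) and without Tln1 vehicle 3 (-0.12). The 10 macrophage markers averaged 4.88 to 5.95 in Tln1 VPA, 4.68 to 5.37 in Tln1 vehicle and 5.01 to 5.12 in control arrays, with the highest value on Tln1 VPA 3, as for Adamts4. Their part in the values of Adamts4 was not tested.

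Adamts9, a versican-cutting protease of vascular and other tissues, stood at 7.36, 7.32 and 6.80 in the Tln1 VPA arrays, at 7.17, 7.00 and 6.90 in the Tln1 vehicle arrays, and at 6.86 and 6.74 in the control arrays. All Tln1 vehicle arrays lay above both control arrays, whereas Tln1 VPA 3 lay below control 1. Tln1 vehicle minus control was 0.22 (SE 0.19), with 0.22 and 0.17 in the sets. Tln1 VPA minus Tln1 vehicle was 0.14 (SE 0.17), or 0.26 and -0.11 within the sets, 0.04 without Tln1 VPA 1 and 0.32 without Tln1 VPA 3. Tln1 VPA minus control was 0.36 (SE 0.19), with 0.48 and 0.06 in the sets.

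Adamts10, which binds fibrillin microfibrils and is mutated in human Weill-Marchesani syndrome, was at 5.17, 5.64 and 5.11 in the Tln1 VPA arrays, at 5.13, 5.06 and 5.71 in the Tln1 vehicle arrays, and at 5.11 and 5.17 in the control arrays. Tln1 VPA 2 and Tln1 vehicle 3 stood above the other 6 arrays, which lay between 5.06 and 5.17. Tln1 vehicle minus control was 0.16 (SE 0.24), or -0.02 and 0.54 within the sets, and -0.04 without Tln1 vehicle 3. Tln1 VPA minus Tln1 vehicle was 0.01 (SE 0.21), or 0.31 and -0.60 within the sets, and -0.16 without Tln1 VPA 2.

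Adamts12 and Adamts15 followed the array sets rather than the groups. Adamts12, also with a mean below the median gene mean, stood at 4.04, 4.00 and 4.68 in the Tln1 VPA arrays, at 3.72, 4.04 and 4.68 in the Tln1 vehicle arrays, and at 3.87 and 4.67 in the control arrays. The first-set arrays lay between 3.72 and 4.04 and the second-set arrays between 4.67 and 4.68, whatever their group. Adamts15, a relative of Adamts1 and Adamts8, was at 5.61, 5.69 and 4.56 in the Tln1 VPA arrays, at 5.75, 5.99 and 4.19 in the Tln1 vehicle arrays, and at 5.75 and 4.91 in the control arrays. Its group means were 5.28 ± 0.63, 5.31 ± 0.98 and 5.33 ± 0.60, and over all arrays no difference between groups exceeded 0.05 in size (SE 0.53 to 0.59). Within the sets the values were larger. Tln1 vehicle minus control was 0.12 (first set) and -0.71 (second set), Tln1 VPA minus Tln1 vehicle was -0.22 and 0.36, and Tln1 VPA minus control was -0.10 and -0.35. With the array set as a term, Adamts15 was at -0.22 (SE 0.19) in Tln1 vehicle minus control and -0.25 (SE 0.19) in Tln1 VPA minus control. The signs of the differences of Adamts12 and Adamts15 turned when single arrays were left out. For Tln1 vehicle minus control, Adamts12 gave -0.12 over all arrays and 0.28 without control 2, and Adamts15 gave -0.02 over all arrays and 0.54 without Tln1 vehicle 3.

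With group and array set in one fit, Adamts12 was 0.75 (SE 0.09) and Adamts4 0.62 (SE 0.12) higher in the second set, and Adamts15 was -1.24 (SE 0.15) and Adamts9 -0.30 (SE 0.10) in the second set against the first. Adamts1 differed by 0.12 (SE 0.07), Adamts10 by 0.13 (SE 0.19) and Adamts5 by 0.04 (SE 0.15) between the sets. The sets were defined from all genes, these included, so the values are a description. The second-set arrays all lay above the first-set arrays for 1 member (Adamts12) and all below them for 1 (Adamts15). Over all genes these shares were 13.2% and 36.6%, so a split by array set was not particular to these members. In the second set the proximal tubule markers were lower, the podocyte markers higher and the Y-linked genes lower (values above). The sets also shared almost no exactly equal values, and which arrays were normalised together is not known. The part of each of these in the set differences of the members was not tested.

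**Figure D2:**
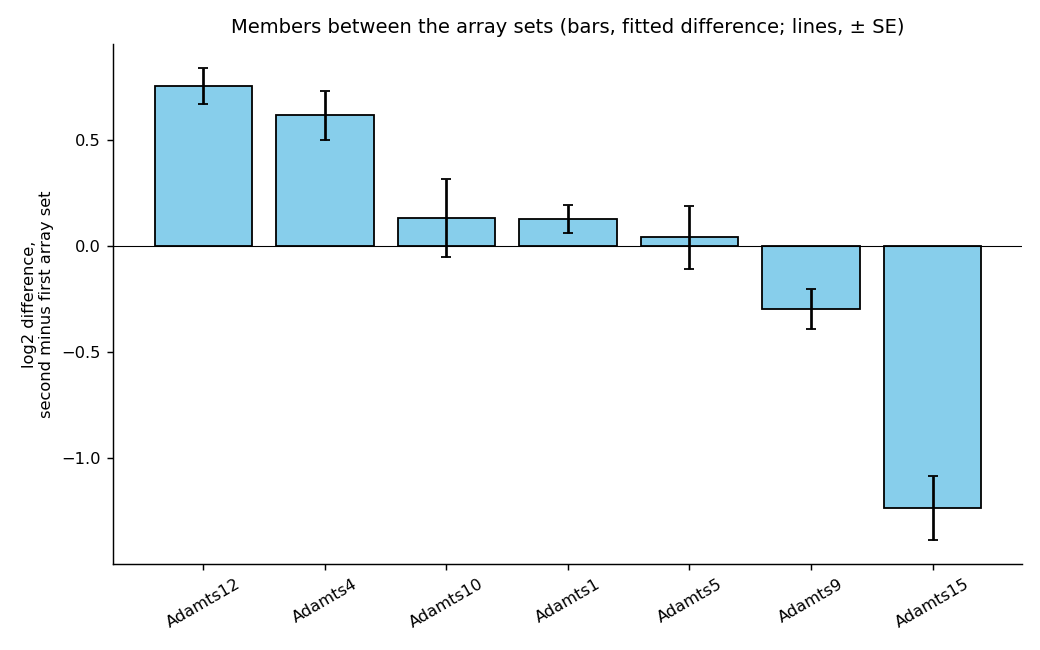
Fitted log2 difference of each member between the second and the first array set (y axis, second minus first), with lines for ± SE, from a fit with group and array set as terms. Adamts12 and Adamts4 are higher in the second set, Adamts15 and Adamts9 lower, and Adamts1 and Adamts5 differ little.

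Across all genes, limma called 0 of 22180 (0%) at an adjusted p below 0.05 in each of the 3 comparisons, and therefore 0 of the 7 members. Unadjusted p values below 0.05 were found for 322 genes (1.45%) in Tln1 vehicle minus control, for 280 (1.26%) in Tln1 VPA minus Tln1 vehicle and for 414 (1.87%) in Tln1 VPA minus control. Among the members, these were Adamts1 and Adamts5 in the first comparison, Adamts5 in the second and Adamts1 in the third. Arrays did not overlap, with the higher values in Tln1 vehicle, for 3 members (Adamts1, Adamts5 and Adamts9) and 4.78% of genes, and with the lower values there for 0 members and 3.59% of genes. For Tln1 VPA against Tln1 vehicle, 1 member (Adamts1) and 1.98% of genes were higher without overlap, and 0 members and 1.57% of genes were lower. For Tln1 VPA against control, 1 member (Adamts1) and 5.57% of genes were higher without overlap, and 0 members and 3.98% of genes were lower. Since such values were known when the members were chosen, nothing is read from these counts. The median difference of the 7 members was 0.16, 0.09 and 0.18 in the 3 comparisons, against 0.02, 0.00 and 0.02 over all genes.

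With the array set as a term, no gene was called either (0% in each comparison), and Adamts1 was at 0.66 (SE 0.08), 0.25 (SE 0.07) and 0.90 (SE 0.08) in the 3 comparisons. With the mean of the Y-linked genes as a covariate, limma called 21 genes (0.0947%) in Tln1 VPA minus control and 0 in the other comparisons. Adamts1, at 0.94, was 1 of the 21, and since it was chosen with its values known, nothing is read from this call.

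**Figure D3:**
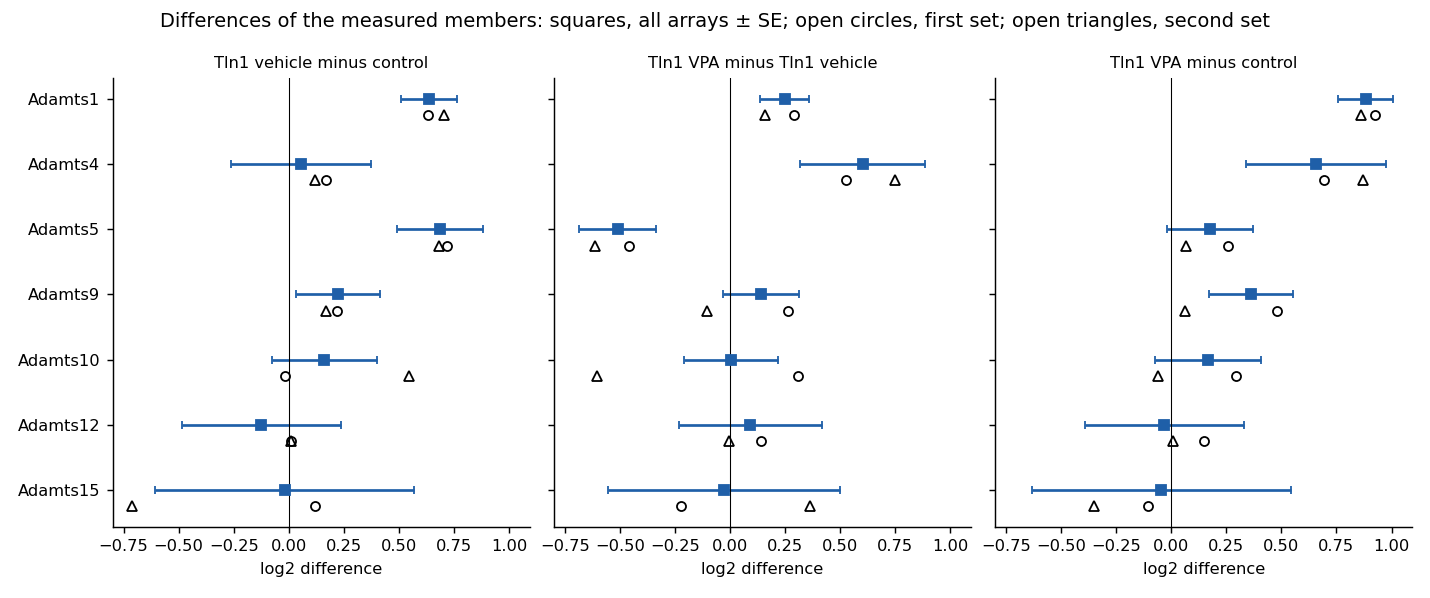
Log2 differences of the 7 members (rows) in the 3 comparisons (panels); squares with lines are the fit over all arrays ± SE, open circles the difference of means within the first set and open triangles within the second set. For Adamts1, Adamts4 and Adamts5, both sets lie on the same side of 0 in every comparison, while for Adamts10 they lie on opposite sides in every comparison.

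All 11 other ADAMTS proteases were measured, and none was called in any comparison. In Tln1 vehicle minus control 8 were higher and 3 lower (median 0.06), and in Tln1 VPA minus Tln1 vehicle 5 were higher and 6 lower (median -0.01). Adamts16, a relative of Adamts18 linked to blood pressure in rats, stood at 5.93, 6.20 and 6.06 in the Tln1 VPA arrays, at 6.27, 6.29 and 6.79 in the Tln1 vehicle arrays, and at 5.92 and 5.89 in the control arrays. Its Tln1 vehicle arrays lay above all arrays of both other groups. Tln1 vehicle minus control was 0.55 (SE 0.18), with 0.36 and 0.90 in the sets, and Tln1 VPA minus Tln1 vehicle was -0.39 (SE 0.16), with -0.22 and -0.73. The values thus ran the same way as those of Adamts5. Adamts7, a relative of Adamts12, was at 0.25 (SE 0.24) in the first and -0.02 (SE 0.22) in the second comparison, and Adamts14, a procollagen N-proteinase, at 0.06 (SE 0.16) and -0.14 (SE 0.14). Adamts8, the gene next to Adamts15 on chromosome 9, had low values between 3.61 and 3.86 on all arrays, and its 2 array sets overlapped.

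**Figure D4:**
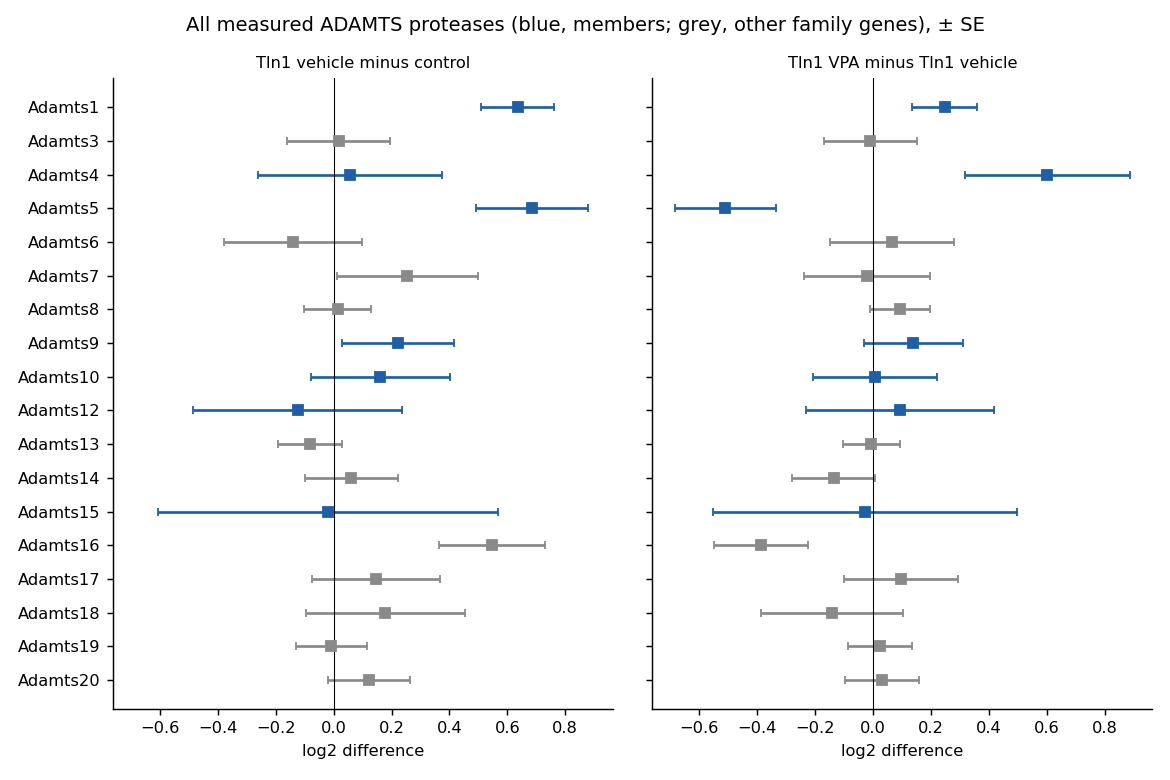
Log2 differences ± SE of all 18 measured ADAMTS proteases (rows) in Tln1 vehicle minus control and Tln1 VPA minus Tln1 vehicle (panels); blue marks the 7 members and grey the other 11 family genes. Adamts1, Adamts5 and Adamts16 lie farthest above 0 on the left, and Adamts5 and Adamts16 farthest below 0 on the right.

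**Figure D5:**
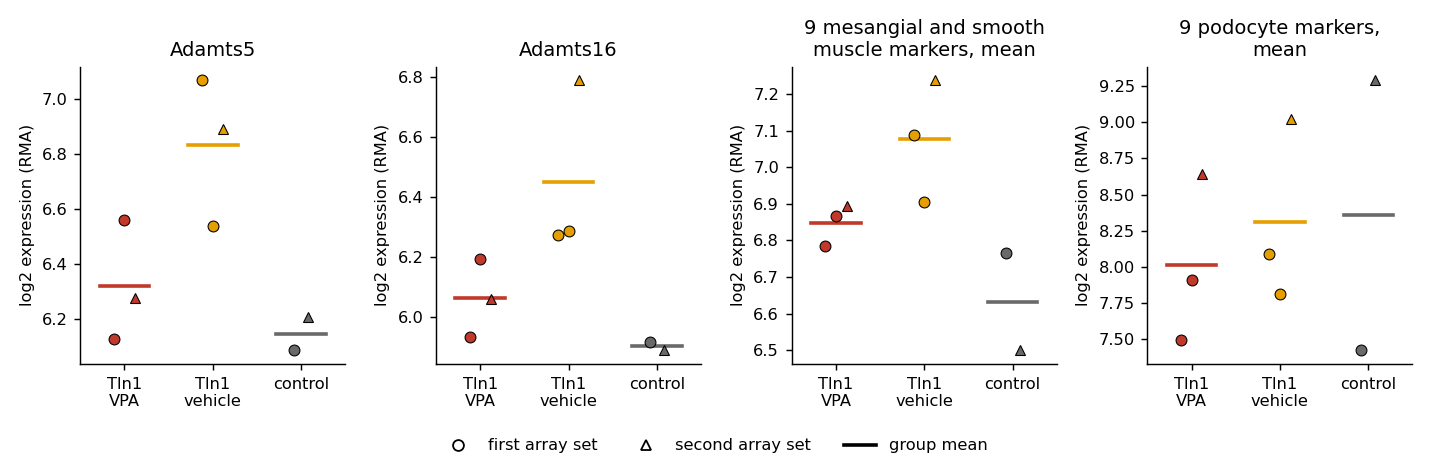
Log2 expression per array of Adamts5, Adamts16, the mean of 9 mesangial and smooth muscle markers and the mean of 9 podocyte markers (y axes, each with its own range) by group (x axis); circles are first-set arrays, triangles second-set arrays, bars group means. The first 3 panels have their highest group mean in Tln1 vehicle, while the podocyte markers part by array set.

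ADAMTS-like proteins share the thrombospondin repeats but lack the protease domain. All 7 on the list were measured and none was called. In Tln1 vehicle minus control 2 were higher and 5 lower (median -0.12), and in Tln1 VPA minus Tln1 vehicle 3 were higher and 4 lower (median -0.10). Papln, papilin, was at 5.25, 5.25 and 4.99 in Tln1 VPA, at 5.10, 5.02 and 5.25 in Tln1 vehicle, and at 5.67 and 5.40 in control arrays. It was -0.41 (SE 0.15) in Tln1 vehicle against control, with no overlap between these groups. Thsd4, a fibrillin-binding protein, was at -0.18 (SE 0.14) there. In Tln1 VPA minus Tln1 vehicle, Adamtsl3 was at -0.19 (SE 0.19) and Adamtsl1 at 0.17 (SE 0.20).

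Of the 6 genes for processing and secretion, all were measured and none was called (2 higher and 4 lower in Tln1 vehicle minus control, 3 and 3 in Tln1 VPA minus Tln1 vehicle). Furin, a convertase that removes the propeptides of many ADAMTS proteases, was at -0.01 (SE 0.35) and 0.01 (SE 0.31) in these comparisons. Pofut2, which adds fucose to thrombospondin repeats, was at -0.11 (SE 0.13) in the first, and B3glct, which extends that fucose, at 0.16 (SE 0.13) in the second. Of the convertases, Pcsk6 was at 0.14 (SE 0.46) in the first and Pcsk5 at -0.27 (SE 0.12) in the second, where its Tln1 VPA arrays lay below all Tln1 vehicle arrays.

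Of the 6 inhibitor and clearance genes, 5 were higher and 1 lower in Tln1 vehicle minus control (median 0.21), and 1 was higher and 5 lower in Tln1 VPA minus Tln1 vehicle (median -0.04), with none called. Timp3, the inhibitor that acts on several ADAMTS proteases, stood at 12.15, 12.27 and 11.58 in Tln1 VPA, at 12.33, 12.41 and 11.75 in Tln1 vehicle, and at 12.15 and 11.62 in control arrays. Its differences were 0.28 (SE 0.29) for Tln1 vehicle minus control and -0.16 (SE 0.26) for Tln1 VPA minus Tln1 vehicle. Timp1, an inhibitor of matrix metalloproteinases with low values here, stood at 4.02, 4.33 and 4.11 in Tln1 VPA, at 3.79, 3.95 and 3.70 in Tln1 vehicle, and at 3.49 and 3.74 in control arrays. Every Tln1 VPA array of Timp1 lay above the other arrays, with a difference of 0.34 (SE 0.14) from Tln1 vehicle and 0.53 (SE 0.15) from control. Lrp1, the endocytic receptor that clears several ADAMTS proteases, was at 0.23 (SE 0.12) in Tln1 vehicle minus control, with no overlap, and -0.03 (SE 0.11) in Tln1 VPA minus Tln1 vehicle. A2m, alpha-2-macroglobulin, was at -0.09 (SE 0.14) in Tln1 VPA minus Tln1 vehicle.

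Among the substrates, none of the 10 proteoglycans and link proteins was called (4 higher and 6 lower in Tln1 vehicle minus control, 6 and 4 in Tln1 VPA minus Tln1 vehicle). Vcan, versican, had values between 2.98 and 3.28 on all arrays, far below the median gene mean, with differences of -0.03 (SE 0.14) and -0.05 (SE 0.13). In Tln1 vehicle minus control, Fmod, fibromodulin, was at -0.24 (SE 0.22) and Hapln1, a link protein, at 0.34 (SE 0.40). In Tln1 VPA minus Tln1 vehicle, Dcn, decorin, was at 0.56 (SE 0.30), with 0.81 and 0.08 within the sets, and Hapln3 at 0.14 (SE 0.20).

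Of the 10 matrix glycoproteins listed, 9 were measured and none was called. In Tln1 vehicle minus control 5 were higher and 4 lower, among them Thbs1, thrombospondin 1 (0.37, SE 0.25), and Comp, cartilage oligomeric matrix protein (-0.28, SE 0.14). In Tln1 VPA minus Tln1 vehicle 4 were higher and 4 lower, and Fbn2 had equal group means. Fn1, fibronectin, stood at 6.05, 5.63 and 5.57 in Tln1 VPA, at 4.88, 4.50 and 5.29 in Tln1 vehicle, and at 5.18 and 4.76 in control arrays. All Tln1 VPA arrays of Fn1 lay above the other arrays, with a difference of 0.86 (SE 0.24) from Tln1 vehicle, and 1.15 and 0.27 within the sets. Fbln1, fibulin 1, a cofactor of Adamts1, was at 0.45 (SE 0.26). Of the 5 procollagen genes none was called, and Col1a1 was at 0.70 (SE 0.31) in Tln1 VPA minus Tln1 vehicle, with no overlap, and -0.05 (SE 0.34) in Tln1 vehicle minus control. Col3a1 was at 0.33 (SE 0.40) and 0.13 (SE 0.45) in these comparisons, and Col1a2 at 0.21 (SE 0.47) in Tln1 vehicle minus control. The mean of 6 fibroblast markers, of which 2 lay above the median gene mean, was 3.72 to 4.15 in Tln1 VPA, 3.79 to 3.98 in Tln1 vehicle and 3.80 to 4.04 in control arrays.

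For comparison, 27 of 28 listed MMP and ADAM proteases, the matrix and membrane-bound relatives, were measured and none was called. In Tln1 vehicle minus control 18 were higher and 9 lower (median 0.03, range -0.23 to 0.37), and in Tln1 VPA minus Tln1 vehicle 12 were higher and 15 lower (median -0.03, range -0.43 to 0.39). Adam19, a membrane-bound protease with low values, was at 0.37 (SE 0.12) in the first comparison, with no overlap, and Mmp2, gelatinase A, at 0.27 (SE 0.18). In the second comparison Adam12, a membrane-bound protease, was at -0.38 (SE 0.16) and Mmp28 at -0.43 (SE 0.29).

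The members differed in which genes their values ran with most closely, by Pearson's r over the 8 arrays among 11085 genes above the median level. As the arrays form 2 sets, r was also taken over deviations from the set means. For Adamts1 the 5 highest were Acsl5 (0.947), Stc1 (0.938), Lcn2 (0.938), Plk2 (0.935) and Mki67 (0.934), and over deviations Srgap3 (0.982), Tnfsf15 (0.979), Slc37a1 (0.976), Krt8 (0.973) and Fam76b (0.973). Lcn2, lipocalin 2, which injured tubules secrete, stood at 9.07, 8.76 and 9.27 in Tln1 VPA, at 8.19, 6.92 and 8.49 in Tln1 vehicle, and at 6.42 and 6.90 in control arrays. For Adamts5 the closest gene was Sema6d (0.926) and, over deviations, Tbx3 (0.970). For Adamts4 these were Idnk (0.977) and Taf9 (0.977), for Adamts9 Vezf1 (0.989) and Rexo4 (0.993), for Adamts10 Med12 on both scales (0.986 and 0.991), for Adamts12 Usp54 (0.999) and Dusp22 (0.979), and for Adamts15 Gcnt1 (0.998) and Tomm20 (0.992). The highest of very many correlations over 8 arrays is high by selection, so these values only describe likeness.

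Among the members themselves, r over deviations from the set means was highest for Adamts1 with Adamts9 (0.813) and with Adamts4 (0.760), and it was 0.377 for Adamts1 with Adamts5. Adamts12 and Adamts15 ran opposite over all arrays and showed no relation within sets, at 0.013. Adamts5 and Adamts4 gave -0.226. These values share their arrays and groups and are a description.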

How the data were processed

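Total RNA of isolated glomeruli was hybridised as biotinylated cRNA to Affymetrix arrays, per the labels' protocols. The deposited log2 values come from RMA (background correction, quantile normalisation and probe set summary). RMA and limma are the tools in the submitters' processing notes. Their versions, the annotation and the genome build: not given in the sources used here. Of 41345 probe sets, 23521 had 1 gene symbol, 1814 several and 16010 none. Per gene, the single-symbol probe set with the highest mean was kept (22180 genes). Entrez identifiers matched RefSeq for 23328 probe sets and changed 0 symbols. The number of arrays limits the precision, and no detection calls were used here.

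A single limma model of the 8 arrays gave all comparisons (lmFit, eBayes, group as the only term; R 4.3.3, limma 3.58.1), two-sided, with Benjamini-Hochberg adjustment over all genes and a threshold of 0.05. The fit was tested on simulated data without array sets, so that test says nothing about the fit under the array sets found here. Figures used matplotlib 3.10.9 in Python 3.11.15. Of 154 list genes, 147 were measured. The members and lists were chosen with earlier results of these data known. Named beside the members are Vcan, Timp1, Timp3, Lrp1, Fn1, Furin, the 2 genes of each protease, processing, inhibitor or substrate list with the smallest p in each of the first 2 comparisons, and the genes closest to each member. Adamts8, Fbn2 and the marker genes Itga8, Pdgfrb, Des, Tagln, Acta2, Myh11, Cnn1, Gata3, Cspg4 and Kap were chosen after their values were seen.

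Array sets are the 2 clusters of arrays by average linkage on correlation. Same-numbered Tln1 VPA and Tln1 vehicle arrays had correlated deviations from the means of their groups (0.570, 0.609 and 0.787, across genes). These values cannot show pairing, since same-numbered Tln1 arrays always lie in the same array set. The labels state no pairing, and the main fit has no term for it. For control arrays the values were 0.609 and -0.591 with Tln1 vehicle and 0.593 and -0.496 with Tln1 VPA. Control 1 shares the array set of the Tln1 arrays numbered 1, and control 2 does not share that of those numbered 2. The signs thus went with the array sets, so these values do not decide on pairing of the controls either.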

Additional observations from a re-analysis of the deposited data

How the results depend on the processing

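Each comparison was refitted under 21 alternatives, 8 of them leaving out a single array. The count of genes called by limma was 0 over all arrays in every comparison. With the replicate number as a block it was 4 in Tln1 vehicle minus control and 1 in Tln1 VPA minus control, none of them a member, and 0 in Tln1 VPA minus Tln1 vehicle. This block sets control 2, of the second array set, beside Tln1 arrays of the first set. With the Y-linked covariate it was 21 in Tln1 VPA minus control, with Adamts1 among them. It stayed at 0 to 0 when single arrays were left out, and at 0 under the other alternatives. The cause was not tested. Of 21 differences (7 members in 3 comparisons), 12 kept their sign under every alternative run, among them all of Adamts1, Adamts5 and Adamts9. In all, 40 of 435 refitted values had the other sign, all of Adamts4, Adamts10, Adamts12 or Adamts15. Several alternatives cannot change the difference of a member, so these counts overstate how stable the signs are. Among them are trended or robust eBayes and fits of only the genes above the median level. Fits of only the groups compared, or without an array outside the comparison, cannot change it either. Adamts1 ranged between 0.57 and 0.73 in Tln1 vehicle minus control, between 0.17 and 0.31 in Tln1 VPA minus Tln1 vehicle and between 0.82 and 0.94 in Tln1 VPA minus control. Adamts5 ranged between 0.57 and 0.83, between -0.66 and -0.39, and between 0.06 and 0.27. Adamts9 ranged between 0.05 and 0.34, between 0.04 and 0.32, and between 0.25 and 0.54. Adamts4 and Adamts12 have no value among genes above the median level, since both lie below it, and their low signal limits what their differences show. Averaging probe sets left the members as they were, as each has 1 probe set.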

Other observations

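Adamts1 was 1 of 24 genes with all Tln1 VPA arrays above all Tln1 vehicle arrays and these above both control arrays. They were picked for this order, so their values are a description. By size of the Tln1 VPA minus control difference, Lcn2 (2.37) and Mki67, a marker of dividing cells (1.45), came first. Pbk, a mitotic kinase (1.28), Anln, the cytokinesis protein anillin (0.98), and Racgap1, a regulator of cytokinesis (0.98), followed. After them came Trim59 (0.94), Tpx2, a spindle protein (0.90), and Adamts1 (0.88). Pbk, Anln, Racgap1, Trim59 and Tpx2 had means over all arrays (4.40, 4.35, 4.920, 4.77 and 4.89) below the median gene mean of 4.925.

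In Tln1 VPA minus Tln1 vehicle, all 10 macrophage markers were higher (median 0.36). So were all 6 markers of parietal epithelial cells, which line Bowman's capsule (median 0.35), with none called. Of all genes, 51.3% were higher there. Of the macrophage markers 6 lay above the median gene mean, and of the parietal markers 5. The macrophage mean overlapped between these groups (4.88 to 5.95 and 4.68 to 5.37), while the parietal mean did not (6.80 to 7.07 and 6.39 to 6.73). In Tln1 vehicle minus control, 3 macrophage markers were higher and 7 lower (median -0.14), and 3 parietal markers were higher and 3 lower (median -0.08), again with none called.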
